A study of Rattus norvegicus with 8 samples.

Results

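The genes described here encode the proteasome, the barrel-shaped protease that destroys proteins tagged with ubiquitin, together with the factors that open, extend or assemble it. They were chosen by name: every probe set with a single gene symbol that starts with Psma, Psmb, Psmc, Psmd, Psme, Psmf or Psmg, which gave 54 probe sets for 47 genes among the 14506 genes that could be named singly on the array. The samples were RNA of the dorsal ipsilateral spinal cord of adult male Wistar rats, taken on day 14 after transection of the L5 spinal nerve, an injury that leaves the animal with lasting hypersensitivity of the paw. One group of 4 animals received HDACI, the histone deacetylase inhibitor MS-275, at 30 nmol/d by intrathecal pump, and the other 4 received vehicle, DMSO in saline, by the same route. MS-275 acts mainly on class I histone deacetylases. All 8 animals carried the injury and the pump, and no uninjured arrays were part of the comparison, which therefore asks only how treated and untreated injured cord differ. Each animal sample was run on 1 Affymetrix Rat Gene ST array, and the values are log2 signals from RMA, which sets all arrays to 1 distribution, so that a level is relative to the other transcripts of the same array. Array medians lay between 7.95 and 7.98.

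The core of the proteasome is a stack of 4 rings. The outer rings are made of alpha subunits, the products of the Psma genes, which gate entry to the chamber. The inner rings are made of beta subunits, and 3 of these cut peptide bonds: Psmb6, Psmb7 and Psmb5 encode beta1, beta2 and beta5. The regulatory particle caps the core. Its base holds a ring of ATPases encoded by Psmc genes, which unfold the substrate, and its lid holds the deubiquitinase Psmd14 and its scaffold. Under interferon, and constitutively in cells of the immune system, the catalytic subunits are replaced by Psmb9, Psmb10 and Psmb8, which form the immunoproteasome and favour peptides that fit MHC class I molecules. Psme1 and Psme2, the subunits of the activator PA28, are induced by the same signals. In the nervous system the inducible subunits are best known from microglia. Expression of the standard subunits is raised together by Nfe2l1, also called NRF1, when proteasome activity falls.

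Of the 47 genes, 14 belonged to the standard core, 17 to the regulatory particle and 5 to the inducible set. The remaining 11 were the activators Psme3 and Psme4, the thymus subunit Psmb11, 3 chaperones of core assembly (Psmg1, Psmg2 and Psmg4), 3 chaperones of base assembly (Psmd5, Psmd9 and Psmd10), and 2 genes that share only the prefix, the recombination factor Psmc3ip and Psme3ip1. Psma8, Psmf1 and Psmg3 were not analysed here. The alpha3 subunit was read through Psma3l, which RefSeq lists as a synonym of Psma3. RefSeq names pseudogenes for 19 of the 47, and probes that also match such copies could mix their signal into that of the gene. Of the members under an unadjusted p of 0.05 below, Psma2 and Psma3l have 2 each. Psmb9, Psmc2, Psmd6 and Psme4 have 0.

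The start regions of 4 genes are printed as background, and no array result below rests on their sequence. They belong to the 3 inducible catalytic subunits, of which Psmb9 differed most between the groups, and to Psmc2. Psmc2 was the member with the smallest p among those that were lower. Each window runs from 250 bases before the annotated start to 50 after it, is taken from RefSeq on the GRCr8 assembly and is written 5′ to 3′ on the strand of the gene. Psmb9 lies at chr20:4668750-4669049 on the plus strand, Psmb8 at chr20:4656982-4657281 on the minus strand, Psmb10 at chr19:50743243-50743542 on the minus strand and Psmc2 at chr4:14162341-14162640 on the minus strand. Capitals mark a match to the interferon-stimulated response element (ISRE), searched as GAAANNGAAA, in Psmb8 and Psmb10, and to an ETS core, searched as CCGGAAG, in Psmc2, each on either strand.
Psmb9: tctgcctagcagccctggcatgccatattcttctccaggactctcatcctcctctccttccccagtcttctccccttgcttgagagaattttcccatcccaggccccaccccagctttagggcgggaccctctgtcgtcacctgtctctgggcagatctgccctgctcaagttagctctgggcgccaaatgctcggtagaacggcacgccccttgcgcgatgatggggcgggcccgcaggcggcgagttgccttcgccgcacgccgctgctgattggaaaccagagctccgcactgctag
Psmb8: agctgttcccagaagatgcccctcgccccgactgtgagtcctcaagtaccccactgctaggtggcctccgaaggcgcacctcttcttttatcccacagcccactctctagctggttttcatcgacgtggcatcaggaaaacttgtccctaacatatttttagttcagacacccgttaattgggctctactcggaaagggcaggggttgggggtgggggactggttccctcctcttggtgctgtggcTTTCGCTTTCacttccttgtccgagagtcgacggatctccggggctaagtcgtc
Psmb10: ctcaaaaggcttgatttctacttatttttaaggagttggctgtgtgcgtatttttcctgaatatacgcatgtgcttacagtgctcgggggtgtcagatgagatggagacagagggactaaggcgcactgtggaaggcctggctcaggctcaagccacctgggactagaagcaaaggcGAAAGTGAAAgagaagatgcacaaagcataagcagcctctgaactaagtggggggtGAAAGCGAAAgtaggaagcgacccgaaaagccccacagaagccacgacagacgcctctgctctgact
Psmc2: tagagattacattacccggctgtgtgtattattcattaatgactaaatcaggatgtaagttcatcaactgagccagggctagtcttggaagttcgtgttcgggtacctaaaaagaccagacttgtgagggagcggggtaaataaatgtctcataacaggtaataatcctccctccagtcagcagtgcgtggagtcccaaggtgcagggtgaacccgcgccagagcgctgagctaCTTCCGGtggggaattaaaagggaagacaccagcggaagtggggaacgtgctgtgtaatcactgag
Psmb10 held ISRE letters at 2 places and Psmb8 at 1, while the window of Psmb9 held none and so has no capitals. Psmb9 shares its start region with Tap1, the peptide transporter gene, and their windows overlap by 44 bases. The Tap1 window held 1 ISRE match. Over the 42 members found in the promoter table, 7 held an ISRE match, namely Psma4, Psmb3, Psmb8, Psmb10, Psmd7, Psme2 and Psmg4, and 3.77% of all 27457 windows did. The ETS letters stood in the windows of 15 members and in 9.22% of all windows. The core of the antioxidant response element that NRF1 and its relatives bind, searched as TGACNNNGC on both strands, stood in 8 members, among them Psmb5, Psmb6 and Psme4, and in 12.2% of all windows. No printed window held matches of more than 1 of these motifs. These are matches of letters and were not tested for binding.

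HDACI and vehicle were compared with limma over all 14506 genes, with p values adjusted by the Benjamini-Hochberg method. At an adjusted p under 0.05, 0 of 47 members and 0 of all genes (0%) passed, and the lowest adjusted p of a member and of any gene was 0.6096. Fitted over the 29214 probe sets instead, 1 passed adjustment, and it belonged to no member. At an unadjusted p under 0.05, 1124 genes passed in all. Every call below is therefore at an unadjusted p, and none holds after correction. At an unadjusted p under 0.05, 1 member was higher with HDACI, Psmb9, where 2.79% of all genes were, and 5 members were lower, Psmc2, Psme4, Psma2, Psma3l and Psmd6 (10.6% of 47), where 4.96% of all genes were. At the study's threshold, an unadjusted p under 0.01, Psmb9 was the only member higher, against 0.607% of all genes, and Psmc2 the only member lower, against 0.855%. The 4 HDACI arrays lay entirely above the 4 vehicle arrays for 1 member, against 1.42% of all genes, and entirely below them for 6 members, against 3.60%. The share of members that were higher (2.13%) was thus near the background, and the share that were lower was above it. Among genes above the median signal the background of lower genes was higher. There 12.8% of 39 members were lower at an unadjusted p under 0.05, against 6.48% of all such genes, and 0 were higher, against 2.69%. The HDACI arrays lay entirely below for 15.4% of these members, against 5.43%. For Psmb5, Psmb7, Psmd2 and Psmd6 the groups nearly touched. These shares were not tested, and they rest on genes of 1 complex read on the same arrays. The labels number the samples without naming animals, and the study's methods call them biological replicates.

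**Figure D1:**
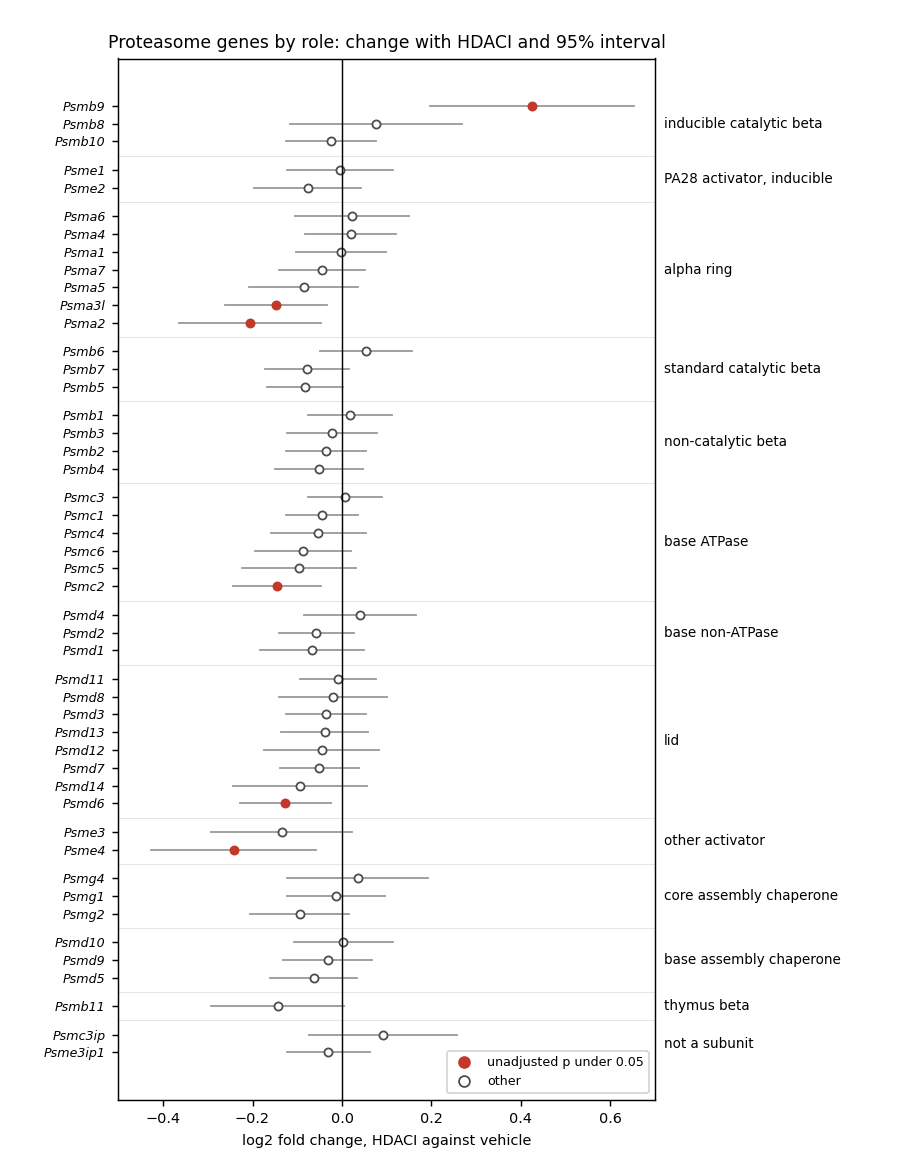
Log2 fold change (HDACI against vehicle) of the 47 proteasome genes, grouped by role, with its 95% confidence interval from limma (4 arrays per group); filled points have an unadjusted p under 0.05. Psmb9 stands alone on the right at 0.43, and 36 of the 47 points lie below 0.

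Most proteasome genes read slightly lower in HDACI-treated cord, and by very little. Of the 47 members, 36 had a log2 fold change below 0 (76.6%), where 57.9% of all genes did. Among genes above the median signal the shares were 33 of 39 members (84.6%) and 59.0% of all such genes. The median log2 fold change over all members was -0.04, and that over all genes was -0.01. The members vary little between arrays of a group, with a median SD of 0.058 against 0.0866 over all genes. Differences of the size seen in most members lay within that spread.

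The standard core had a median log2 fold change of -0.04, with 10 of 14 genes below 0. In the alpha ring, whose subunits gate the chamber, the values ran from -0.21 for Psma2 to 0.02 for Psma6. The 2 probe sets of Psma6 differed in sign, at 0.08 for a dim one and -0.04 for a bright one. Psma2 read 9.88, 9.94, 9.77 and 9.81 on HDACI arrays 1 to 4 and 9.88, 10.17, 10.01 and 10.16 on vehicle arrays 1 to 4. Vehicle array 1 lay among the HDACI arrays, and the other vehicle arrays lay above all of them. The log2 fold change of -0.21 had an SE of 0.07 (limma, unadjusted p = 0.0162), and the exact two-sided permutation p was 0.0571. Psma3l, for alpha3, read 10.08, 10.00, 10.06 and 10.10 with HDACI and 10.14, 10.22, 10.15 and 10.32 with vehicle, with no overlap. Its log2 fold change was -0.15 (limma, unadjusted p = 0.0170), or 1.11-fold lower, and the exact two-sided permutation p was 0.0286, the smallest that 4 against 4 allow. Psma1, Psma4, Psma5, Psma6 and Psma7 did not pass, with values between -0.09 and 0.02.

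None of the standard catalytic subunits passed. Psmb5, which carries the chymotrypsin-like activity, read 11.9957, 11.9286, 11.9227 and 11.9344 with HDACI and 12.0340, 12.0569, 12.0182 and 12.0002 with vehicle, in 4 decimals because the groups nearly touch. The groups did not overlap, although HDACI array 1 came within 0.01 of the lowest vehicle array, and the log2 fold change of -0.08 missed the threshold (limma, unadjusted p = 0.0578). Psmb7, the trypsin-like subunit, was likewise lower on all 4 HDACI arrays without passing, at -0.08 (interval -0.17 to 0.01). There too the groups nearly touched, at 11.8935 on HDACI array 1 and 11.8983 on vehicle array 3. Psmb6, the caspase-like subunit, had a value above 0, at 0.05 (interval -0.05 to 0.16). The 4 beta subunits without catalytic sites, Psmb1 to Psmb4, ran from -0.05 for Psmb4 to 0.02 for Psmb1.

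In the regulatory particle 15 of 17 genes had values below 0, with a median of -0.05. All 8 lid genes and 5 of the 6 ATPases were on that side, and Psmc3, an ATPase at 0.01, and Psmd4, a ubiquitin receptor of the base at 0.04, were the exceptions. The lid subunit Psmd8 was below 0 only through a dim probe set, at -0.04, while its bright one was at 0.00. Psmc2, the ATPase Rpt1, read 11.25, 11.21, 11.29 and 11.22 with HDACI and 11.31, 11.43, 11.37 and 11.44 with vehicle. Every HDACI array lay below every vehicle array. The log2 fold change was -0.14 with an SE of 0.04 (limma, unadjusted p = 0.00866), or 1.11-fold lower, and the p passed 0.01 narrowly: it was between 0.00334 and 0.0293 over 16 alternatives and under 0.01 in 4 of them. Psmd6, a scaffold subunit of the lid, read 11.45, 11.32, 11.41 and 11.42 with HDACI and 11.45, 11.54, 11.56 and 11.55 with vehicle. The gap between HDACI array 1 and vehicle array 1 was under 0.01. Its log2 fold change was -0.13 (limma, unadjusted p = 0.0195), and the call was lost without HDACI array 2 (limma, unadjusted p = 0.0515) or without vehicle array 3 (limma, unadjusted p = 0.0531). Psmd2, the large scaffold of the base, was lower on all HDACI arrays too, at -0.06 (interval -0.14 to 0.03). The groups nearly touched, at 11.9709 on HDACI array 3 and 11.9789 on vehicle array 4. Psmd1, the neighbour of Psmd2 in the base, had -0.07. The deubiquitinase Psmd14 had -0.09 (interval -0.24 to 0.06), and Psmd11, another scaffold of the lid, had the smallest difference there at -0.01.

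The mean over the 14 core genes was 10.49, 10.45, 10.48 and 10.46 on the HDACI arrays and 10.48, 10.55, 10.51 and 10.52 on the vehicle arrays. For the 17 genes of the regulatory particle the means were 10.50, 10.45, 10.47 and 10.45 with HDACI and 10.49, 10.56, 10.53 and 10.50 with vehicle. In both groups of genes vehicle array 1 lay among the HDACI arrays and vehicle array 2 lay highest. Vehicle array 2 held the highest value for 16 of these 31 genes, and HDACI array 2 the lowest for 10 of them. The group means differed by -0.05 in both sets, beside an SD of 0.02 to 0.03 over the arrays of a group.

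**Figure D2:**
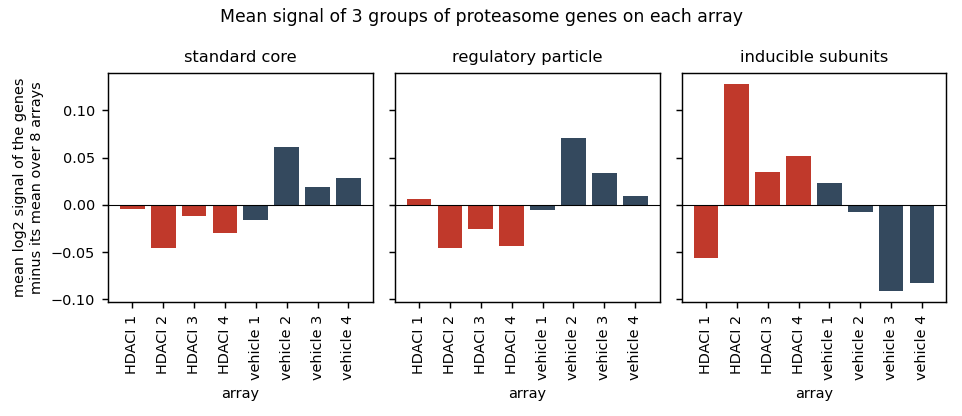
Mean log2 signal of the standard core (14 genes), the regulatory particle (17 genes) and the inducible subunits (5 genes) on each array, minus its mean over the 8 arrays (bars start at 0; HDACI red, vehicle dark). Core and regulatory particle were highest on vehicle array 2, and the inducible set on HDACI array 2.

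In the inducible set Psmb9 was higher with HDACI at an unadjusted p under 0.05, and the other 4 did not pass. Psmb9, the beta1i subunit, read 8.26, 8.73, 8.42 and 8.30 on HDACI arrays 1 to 4 and 8.11, 7.95, 8.07 and 7.88 on vehicle arrays 1 to 4. Each HDACI array lay above each vehicle array, and HDACI array 2 lay highest of all. The log2 fold change was 0.43 with an SE of 0.10 and an interval of 0.20 to 0.65 (limma, unadjusted p = 0.00211), or 1.34-fold higher, and the exact two-sided permutation p was 0.0286. Psmb9 is among the probe sets that the study listed from these same arrays at its own threshold, so its call is not independent of that choice. Without HDACI array 2 the log2 fold change was 0.32 with an unadjusted p of 0.00132 (limma). Its p was under 0.01 in 15 of 15 alternatives that kept the gene. A filter at the median signal removed Psmb9, whose mean signal lay below the median over genes.

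Psmb8, the beta5i subunit, read 7.29, 7.42, 7.44 and 7.45 with HDACI and 7.43, 7.43, 7.06 and 7.39 with vehicle. The groups overlapped, and the log2 fold change of 0.08 (interval -0.12 to 0.27) came from vehicle array 3 alone, since without it the value was -0.01. Every reading of Psmb8 lay below the median of its array, and no detection call was available. Psmb10, the beta2i subunit, read 8.72, 8.78, 8.76 and 8.75 with HDACI and 8.77, 8.87, 8.76 and 8.70 with vehicle. Its log2 fold change was -0.02 (interval -0.13 to 0.08), a narrow interval around 0. Psme2, the PA28 beta subunit, had -0.08 (interval -0.20 to 0.04). Psme1, the PA28 alpha subunit, had -0.00 (interval -0.12 to 0.12) as the mean of a bright and a dim probe set, at 10.5 and 7.17 in vehicle, whose changes of 0.01 and -0.02 differed in sign. The median over the 5 inducible genes was -0.00 and the mean 0.08, which differ in sign, with Psmb9 far above the rest. Whether Psmb9 changed by more than Psmb8 or Psmb10 was not tested.

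**Figure D3:**
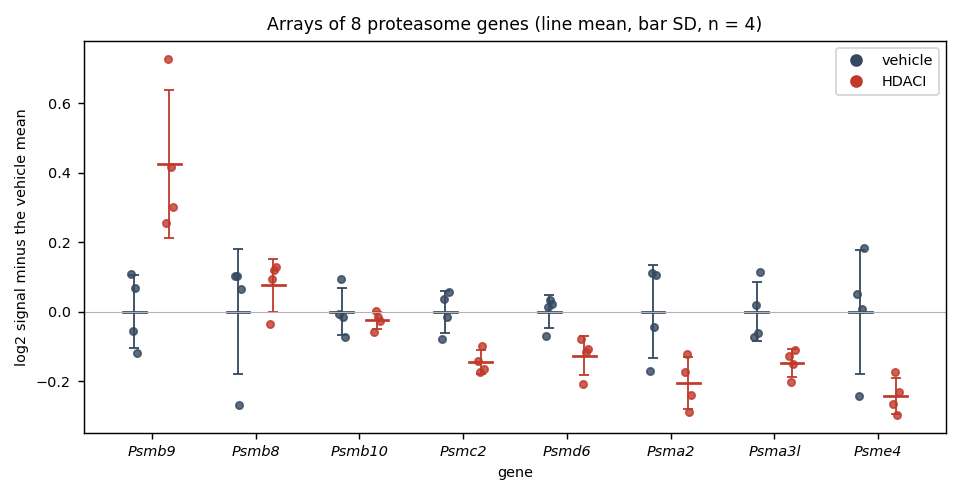
Log2 signal of 8 proteasome genes on every array, minus the mean of the vehicle arrays of the same gene (points are arrays, lines means, bars SD, 4 arrays per group). Psmb9 does not overlap, and its mean is 0.43 higher with HDACI. Psmb8 and Psmb10 overlap, and the vehicle arrays of Psme4 spread from 10.40 to 10.83 in log2 signal.

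Within each array the inducible subunit was set against the standard subunit whose place it takes, which shows the change in their balance but not which is more abundant, since probe sets of different genes have no common scale. For the beta1 site, Psmb9 minus Psmb6 was -2.75, -2.12, -2.57 and -2.64 on the HDACI arrays and -2.80, -2.91, -2.85 and -3.00 on the vehicle arrays. The difference was 0.37 higher with HDACI and the groups did not overlap, the nearest arrays being HDACI array 1 and vehicle array 1. Without HDACI array 2 it was 0.24. For the beta2 site, Psmb10 minus Psmb7 was 0.05 higher, at -3.11 ± 0.05 against -3.16 ± 0.03 (SD, n = 4), with overlap. For the beta5 site, Psmb8 minus Psmb5 was 0.16 higher, at -4.54 ± 0.11 against -4.70 ± 0.17 (SD, n = 4). Its lowest values were -4.96 on vehicle array 3 and -4.71 on HDACI array 1, so the groups overlapped there as well. Without vehicle array 3 the difference was 0.07. Psmb8 read below the median of every array and had no detection call, so this difference may not show a change in balance. Psmb9 had no detection call either, and it read below the array median on vehicle arrays 2 and 4. The difference at the beta1 site shares that limit in part. The 3 differences are given without a test because Psmb9 was known to differ.

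**Figure D4:**
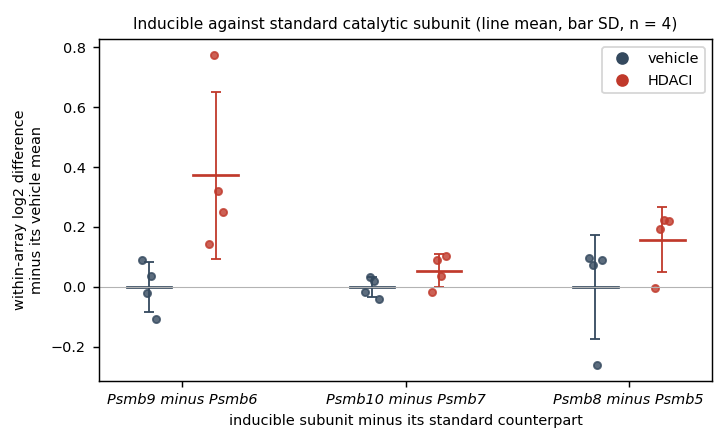
Within-array log2 difference between each inducible catalytic subunit and its standard counterpart, minus the mean of the vehicle arrays (points are arrays, lines means, bars SD, 4 arrays per group). The groups do not overlap for the pair Psmb9 and Psmb6, whose group means differ by 0.37, and the other 2 pairs overlap.

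Of the remaining members, Psme4 differed most. This gene, also called PA200, a large nuclear activator that serves the degradation of acetylated histones, read 10.38, 10.47, 10.35 and 10.41 with HDACI and 10.69, 10.40, 10.65 and 10.83 with vehicle. Vehicle array 2 lay among the HDACI arrays, while the other vehicle arrays lay clear of them. The log2 fold change was -0.24 with an SE of 0.08 (limma, unadjusted p = 0.0153), or 1.18-fold lower, and the exact two-sided permutation p was 0.0857. Psme3, the nuclear activator PA28 gamma, had -0.13 (interval -0.29 to 0.02), with both of its probe sets below 0, at -0.11 and -0.16. The core chaperones ran from -0.09 for Psmg2 to 0.03 for Psmg4, and the base chaperones from -0.06 for Psmd5 to 0.00 for Psmd10. Psmb11, a subunit of thymic epithelium, had a mean of 6.04 with HDACI and 6.18 with vehicle, below the medians of the arrays, and without a detection call its difference of -0.14 cannot be read as a change of expression in cord. Psmc3ip and Psme3ip1, which are no subunits, had 0.09 and -0.03.

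Of 24 other genes that serve the proteasome, including ubiquitin shuttles, associated deubiquitinases and the regulator Nfe2l1, 17 were measured. Of these, 14 had values below 0 (82.4%, against 57.9% of all genes), with a median of -0.04. At an unadjusted p under 0.05, 2 were lower (11.8%, against 4.96% of all genes) and 0 higher. The RNA of the transcription factor Nfe2l1 was 0.13 lower on the log2 scale, with no overlap (limma, unadjusted p = 0.0180). It read 11.21 ± 0.07 with HDACI and 11.34 ± 0.04 with vehicle (SD, n = 4). The arrays did not measure the activity of Nfe2l1, and a link to the subunits was not tested. Usp14, a deubiquitinase that docks on the base, had -0.16 (limma, unadjusted p = 0.0249). Vcp, the segregase that delivers unfolded substrates, had -0.08 and did not overlap but missed the threshold (limma, unadjusted p = 0.0592). Sem1, a small lid subunit whose symbol falls outside the naming rule, was read by 2 probe sets that differed. The one that the platform annotation names had -0.01, and one that only the study's annotation assigns to Sem1 had -0.34 (limma over all probe sets, unadjusted p = 1.15e-04, adjusted p = 0.716), with 8.70 to 8.75 on the HDACI arrays and 8.98 to 9.19 on the vehicle arrays. The study had chosen that probe set on these arrays, and which transcript it reads was not settled here.

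Of 11 partners of the immunoproteasome in antigen presentation and interferon signalling, 9 were measured. Their median was 0.08, with 6 of 9 above 0, where 6106 of all 14506 genes were. At an unadjusted p under 0.05, 0 were higher, against 2.79% of all genes. At the same threshold 1 was lower (11.1%), against 4.96% of all genes. The 6 values above 0 ran from 0.02 to 0.19, and none of these genes passed. Tap1, which shares its start region with Psmb9, had 0.08 with an SE of 0.10. Tap2, the partner of Tap1 in the transporter, had 0.19 (limma, unadjusted p = 0.0834), and B2m, the light chain of MHC class I, had 0.14 (limma, unadjusted p = 0.0604). Calr, a chaperone of the loading complex, was the gene that was lower, at -0.12 (limma, unadjusted p = 0.0455). Pdia3, a disulfide isomerase of the same complex, had -0.07 without overlap and missed the threshold (limma, unadjusted p = 0.0817).

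Cell type markers were set beside these values, because in bulk tissue more cells of a type and more RNA per cell cannot be told apart. The mean log2 signals of the marker lists for spinal neurons, astrocytes and oligodendrocytes lay between 11.08 and 12.44 on every array, above the array medians, in tissue labelled spinal cord, and none of their 16 measured genes passed an unadjusted p under 0.05. Of 12 microglia and macrophage markers, 11 had values above 0, where 6106 of all 14506 genes did, with a median of 0.10. Cd68, a lysosomal marker, was the 1 that passed, at 0.30 (limma, unadjusted p = 0.0190), or 8.33% of the list against 2.79% of all genes. The list's mean signal was 9.89 to 10.20 on the HDACI arrays and 9.70 to 10.16 on the vehicle arrays. Of 7 T cell markers, Cd4, which rat microglia also express, was the 1 that passed, at 0.21 (limma, unadjusted p = 0.0352). That was 14.3% of the list against 2.79% of all genes, and rests on 1 gene. The list's mean was 6.67 to 6.76 with HDACI and 6.57 to 6.77 with vehicle. The defining Cd3 genes were dim in both groups, at 4.47 to 6.07 with HDACI. Of 8 leptomeningeal markers 0 passed, and their mean was 8.21 to 9.52 with HDACI and 8.29 to 8.95 with vehicle. Of 5 endothelial markers 0 passed, with means of 9.08 to 9.40 and 9.10 to 9.21. HDACI array 2, on which Psmb9 was highest, also held the highest mean of the leptomeningeal, microglia, endothelial and oligodendrocyte markers and of the antigen presentation partners, and the lowest mean of the neuron markers. The part of these lists in the values of Psmb9 was not tested.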

How the data were processed

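RNA of 8 injured rat spinal cords, 4 HDACI and 4 vehicle by the sample labels, was measured on arrays. The deposited values are log2 signals of 29214 probe sets, which the authors made with the R package oligo and RMA (background correction, quantile normalization, summary per probe set). Their versions are not given in the sources consulted. Of the probe sets, 15310 had 1 platform symbol, 323 several and 13581 none; symbols were brought up to date through RefSeq. A gene's value was the mean of its probe sets, also for the 7 members with 2 probe sets, 3 of which differed in sign. Groups were compared in limma (version 3.58.1, lmFit and eBayes, under R 4.3.3) over 14506 genes, two-sided, with 6 residual and 3.36 prior degrees of freedom, no filter and no block. Exact permutation tests covered all assignments of 4 and 4 arrays, and their smallest p is 0.0286. The number of arrays limits the precision. The fit was tested on simulated data. The members and lists were chosen with earlier results of these data known.

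The text names members with an unadjusted p under 0.05, the 5 inducible subunits and their standard counterparts, and the extremes of each role. Also named are the 3 smallest p of the lists of other proteasome genes and of antigen presentation, and marker genes under 0.05. Members that did not overlap, Tap1, Tap2, Sem1 and the Cd3 genes were added after their values were seen. Psmd8, Psmd13, Psmd14 and the remaining alpha subunits are named outside these rules. Lists of roles and of motif matches name further members. Lists covered other proteasome genes, antigen presentation, microglia, T cells, leptomeninges, endothelium, neurons, astrocytes and oligodendrocytes. The alternatives tried were trend and robust eBayes, a filter at the median signal, further quantile normalization, centring on array medians, the brightest probe set per gene, probe sets in place of genes, array weights, the replicate number as a block and leaving out each array in turn. Fold changes in the study's own table were not used.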

Additional observations from a re-analysis of the deposited data

Results flagged for a closer look

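In 106 groups of 4 arrays, 7 held 1 array far from the other 3 by Dixon's ratio, and chance alone gives about 1 in 20. Psmb8 read 7.06 on vehicle array 3, where the other vehicle arrays read 7.39 to 7.43, and this put its difference from Psmb5 at -4.96 there, against -4.63 to -4.61. The same difference was -4.71 on HDACI array 1, against -4.51 to -4.48 on the other HDACI arrays. There Psmb5 read 11.996, against 11.923 to 11.934, and Psme1 read 8.70, against 8.86 to 8.88. Psmc3 read 9.79 on vehicle array 3, against 9.74 to 9.75 on the others. Psmd13, a lid scaffold, read 9.89 on vehicle array 4, against 9.80 to 9.81.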

How the results depend on the processing

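The number of members at an unadjusted p under 0.01 was 2 and became 1 with centring on array medians, with a filter at the median signal, after further quantile normalization, with probe sets in place of genes and with a replicate block, and 4 with eBayes trend and robust settings. Leaving out 1 array gave 1 to 3. Members higher at an unadjusted p under 0.05 went from 1 to 0 with the filter, which removed Psmb9 as dimmer than the median. The 5 members lower became 4 to 7 over all alternatives. The replicate block gave 4 there: Psmd6 lost its call (limma, unadjusted p = 0.052). Deviations of arrays with the same number had correlations from -0.27 to 0.36, so the numbers were not taken to pair the animals. Psmb9 ran from 0.32 to 0.48. Psmc2, Psme4, Psma2 and Psma3l stayed under 0.05 in 16 of 16 alternatives, Psmd6 in 13. Psmb5 was under 0.05 in 5 and Psmb7 in 1. The medians of core, regulatory particle and inducible set moved by less than the spread between replicates. Values near 0 changed sign: Psme1 was 0.00457 after further quantile normalization, 0.01122 with the brightest probe set or probe sets, and -0.02215 to 0.0374 leaving out 1 array. Leaving out 1 array, Psmb10 ran from -0.0488 to 0.00608 and Psmb8 from -0.0138 to 0.114. The cause was not tested.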
